A study of Homo sapiens with 16 samples.

Results

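The mRNAs of 10 immediate early factors were followed in HL60 cells treated with SY-351, which blocks the kinase CDK7. The genes were taken by name: FOS, FOSB, FOSL1 and FOSL2 of the FOS family, JUN, JUNB and JUND of the JUN family, EGR1, IER2 and IER5. All 10 have 1 row each among 18080 genes of the deposited count table. HL60 is a human promyelocytic leukaemia cell line that grows in suspension. The cells were given 50 nM SY-351 or the solvent DMSO for 5 h, in Iscove's medium with 20% fetal bovine serum, and their polyadenylated RNA was sequenced. Each group has 4 numbered replicates of 2 technical repeats each, so that 16 records stand behind 8 count columns. Whether the replicates were separate cultures is not in the labels. The p-values below therefore speak for the spread between these libraries, shared over genes, which may be technical.

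Immediate early genes are transcribed within minutes of a stimulus such as serum or a growth factor, from factors already present in the cell, and their mRNAs are short-lived. FOS and JUN proteins pair through leucine zippers to form AP-1, while JUNB and JUND often restrain or replace JUN in the pair, and the partners present decide which genes AP-1 switches on. EGR1 is a zinc finger activator whose promoter answers to serum response factor, and IER2 and IER5 are small nuclear proteins made in the same first wave. CDK7 is part of the general transcription factor TFIIH, where it phosphorylates the tail of RNA polymerase II, and short-lived mRNAs are the ones that follow a change in transcription soonest.

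Values are CPM, counts scaled to a common library total, after TMM scaling over the 8 libraries, which assumes that most genes do not change. No added RNA standard was recorded, so every level is relative to the library, and in such bulk samples fewer cells making an mRNA and less mRNA per cell cannot be told apart. Counts assigned to genes totalled 43.3 to 77.9 M per SY-351 library and 103.7 to 124.2 M per DMSO library. The smallest count of any of the 10 genes in any library was 116, for EGR1 in SY-351 replicate 4. Gene positions below are those of the deposited table on GRCh38, spanning each gene from first to last exon, with exons counted in GENCODE v29. For all 10 genes the deposited start lies 1 base before the RefSeq start. DMSO replicates 1 and 2 stood apart from the other 6 libraries: log2 CPM over genes correlated at a Pearson r of 0.638 to 0.673 between both DMSO pairs, but at 0.987 or more within them. The GC content of GENCODE v29 transcripts, weighted by the counts of their genes, averaged 57.2% and 57.1% in DMSO replicates 1 and 2. It averaged 51.2% to 51.5% in SY-351 and 51.0% and 50.9% in DMSO replicates 3 and 4. The 10 genes took 0.0405% to 0.0458% of the counts in SY-351, against 0.280% and 0.326% in DMSO 1 and 2 but 0.0601% and 0.0602% in DMSO 3 and 4. Results are therefore given against all 4 DMSO libraries and against DMSO 3 and 4 alone. Of 7 promyelocyte markers 4 have a row. MPO, a granule enzyme, lay at 28258 to 32719 CPM in SY-351, against 41361 and 48112 CPM in the first DMSO pair and 12116 and 15764 CPM in the other. The remaining 3 ran the other way between the DMSO pairs. LYZ lay at 4105 to 4632 CPM in SY-351, against 576 and 227 CPM in DMSO replicates 1 and 2 and 1242 and 1814 CPM in replicates 3 and 4. CTSG lay at 586 to 670 CPM in SY-351, against 83.9 and 19.4 CPM in replicates 1 and 2 and 211 and 280 CPM in replicates 3 and 4. CD33 lay at 74.9 to 80.3 CPM in SY-351, against 5.64 and 3.10 CPM in replicates 1 and 2 and 62.4 and 86.4 CPM in replicates 3 and 4.

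The promoters of 4 genes are shown because the results turn on these genes: JUND and JUNB, which moved apart, FOS, the founding member, and EGR1, the classical serum response target. They are the bases just before the transcription start, 5′ to 3′ on the gene's own strand, from RefSeq on GRCh38.p14. RefSeq promoters matched 9 of the 10 genes, all but FOSL1. In each, the 250 bases before the start were searched. All 250 are shown for JUND and JUNB, and the last 150 for FOS and EGR1. Capitals mark a TATA box (TATAAA), a cyclic AMP response element (TGACGTCA, here CRE) or a CArG box, the site of serum response factor.
JUND promoter, chr19:18281623-18281872, minus strand: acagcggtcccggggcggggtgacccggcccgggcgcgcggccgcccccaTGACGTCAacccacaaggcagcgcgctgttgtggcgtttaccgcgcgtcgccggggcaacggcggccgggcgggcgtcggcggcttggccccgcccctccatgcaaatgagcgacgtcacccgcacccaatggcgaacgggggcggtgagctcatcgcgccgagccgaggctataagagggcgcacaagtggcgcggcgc
JUNB promoter, chr19:12791236-12791485, plus strand: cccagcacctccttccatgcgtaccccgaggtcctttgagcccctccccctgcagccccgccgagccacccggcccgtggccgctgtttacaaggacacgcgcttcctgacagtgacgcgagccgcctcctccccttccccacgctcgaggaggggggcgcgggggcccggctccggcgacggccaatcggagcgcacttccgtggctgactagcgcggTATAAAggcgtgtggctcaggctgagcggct
FOS promoter, chr14:75278678-75278827, plus strand: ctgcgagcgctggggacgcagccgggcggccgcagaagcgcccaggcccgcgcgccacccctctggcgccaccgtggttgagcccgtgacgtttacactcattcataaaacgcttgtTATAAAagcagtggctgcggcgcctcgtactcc
EGR1 promoter, chr5:138465329-138465478, plus strand: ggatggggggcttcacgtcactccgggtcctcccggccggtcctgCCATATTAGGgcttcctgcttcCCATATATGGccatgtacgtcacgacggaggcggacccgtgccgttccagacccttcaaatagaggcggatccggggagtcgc

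Within the 250 bases searched, EGR1 alone of the 9 held a CArG box, a CC, 6 bases of A or T and a GG. EGR1 held 2 of them, at −105 to −96 and −83 to −74 from the start. Sites further upstream, in FOS or any other gene, were not searched for. Of 35116 promoters of the same length, 1.16% held one. JUND alone held a full CRE, at −200 to −193, against 1.65% of promoters. A TATA box on the gene's strand lay in FOS at −33 to −28, in FOSB at −30 to −25 and in JUNB at −31 to −26, so in 3 of 9, against 6.8% of promoters. A GC box (GGGCGG, either strand, not capitalised above) lay in 6 of 9, against 42.64%. No AP-1 site (TGACTCA or TGAGTCA, either strand) and no EGR site (GCGTGGGCG or GCGGGGGCG, either strand) was found in these windows, while 4.2% and 5.37% of promoters held one. Near matches to these exact strings were not searched for, and the JUN window holds the letters tgacatca. The shorter CRE core TGACG on either strand, which the full CRE contains, was searched for after the sequences had been read: 8 of 9 held it, all but IER5, against 21.22% of promoters. These matches describe letters and not binding.

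The 3′ UTRs carry the AU-rich elements that make many immediate early mRNAs unstable. At least 1 ATTTA pentamer was found in 9 of 10, all but IER2, against 62.5% of genes, with 10 in IER5, 9 in FOSL2, 5 in FOS, 3 each in FOSB and JUN, 2 in JUNB and 1 each in FOSL1, JUND and EGR1. The longer nonamer, TTATTTA followed by 2 bases of A or T, lay in FOS (1), FOSL2 (1) and IER5 (4 in overlapping runs), so in 3 of 10 against 16.3% of genes. The first of each gene is shown with its flanks, as the mRNA reads in GENCODE v29 (GRCh38), with the nonamer in capitals.
FOS 3′ UTR site: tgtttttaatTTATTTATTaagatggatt
FOSL2 3′ UTR site: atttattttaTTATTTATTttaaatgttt
IER5 3′ UTR site: gtgtcttcctTTATTTATTtatttattta

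Against all 4 DMSO libraries, FOSL2, JUN, JUND and IER5 fell and none of the 10 rose. That is 4 of 10 lower, where 13.6% of the 15472 genes tested were lower and 2.91% were higher. The call was made with edgeR's quasi-likelihood test at a Benjamini-Hochberg adjusted p below 0.05. By that test 0 of the 10 were higher at an unadjusted p below 0.05 too, and DESeq2 and limma-voom called 0 higher. In FOSB, FOSL2, JUN, JUND and IER5 every SY-351 library lay below every DMSO library, as in 18.2% of genes. In 0 of the 10 did every SY-351 library lie above every DMSO library, as it did in 15.5% of genes. Against DMSO 3 and 4 alone the factors parted: the same 4 genes fell, while FOS, FOSL1, JUNB and IER2 rose, and FOSB and EGR1 did not pass the test. There 26.4% of 15811 genes tested were lower and 21.9% were higher. In that fit the variance was largely shared over genes. Standard errors were near equal for JUND (0.154), IER5 (0.155), JUN (0.164), JUNB (0.165) and IER2 (0.167). The p-values against DMSO 3 and 4 therefore do not measure each gene's own spread over the 6 libraries. The SY-351 libraries did not overlap DMSO 3 and 4 in 5 genes that lay below (28.9% of all genes) and in 4 that lay above (27.4%), so that EGR1 alone overlapped. The median log2 fold of the 10 was −2.13 against all DMSO libraries and −0.49 against DMSO 3 and 4, where the medians of all genes were 0.00 and 0.01.

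**Figure D1:**
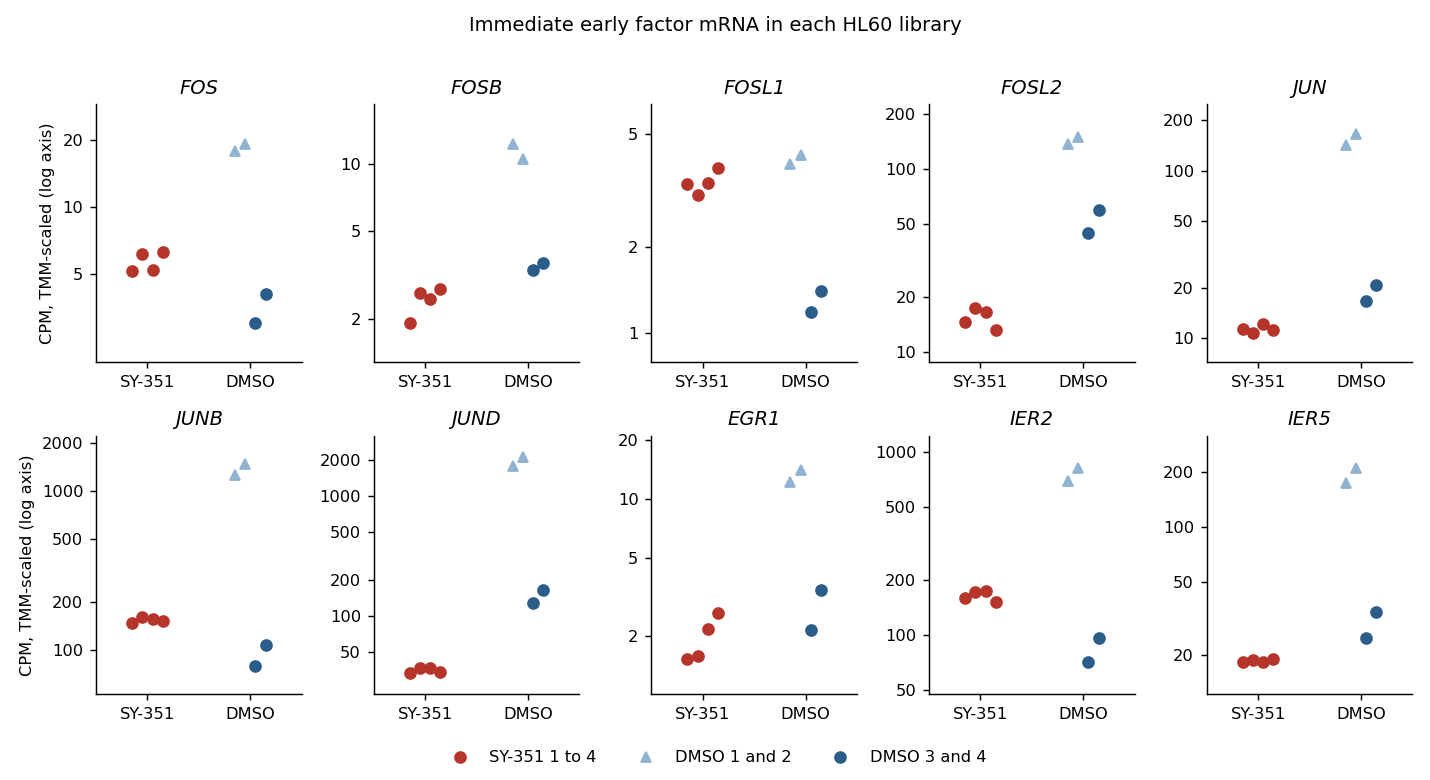
CPM (TMM-scaled, log axis, its own range in each panel) of the 10 factors in each library, 1 point a library: SY-351 1 to 4 in red, DMSO 1 and 2 as light triangles, DMSO 3 and 4 in dark blue. DMSO 1 and 2 are the highest libraries for every gene, and the SY-351 points lie above DMSO 3 and 4 in FOS, FOSL1, JUNB and IER2.

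The JUN family split, with JUND and JUN lower and JUNB higher against DMSO 3 and 4. JUND (NM_005354, chr19:18279693-18281622, minus strand, 1 exon), the most evenly expressed of the 3 in resting cells, lay at 33.9, 37.2, 37.0 and 34.7 CPM in SY-351, against 1781, 2096, 128 and 166 CPM in DMSO replicates 1 to 4. All 4 SY-351 libraries were below all 4 DMSO libraries, and DMSO 1 and 2 were far above DMSO 3 and 4. The log2 fold was −2.02 ± 0.15 (SE, SY-351 over DMSO 3 and 4; edgeR adjusted p = 2.18e-37), a fall of 4.05-fold and the deepest among the 10. Only 3.96% of all genes had a fold that low or lower. Against all DMSO libraries it was −4.87 ± 1.02 (edgeR adjusted p = 0.0172).

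JUNB (NM_002229, chr19:12791485-12793315, plus strand, 1 exon), the JUN family member best known as a brake on proliferation in myeloid cells, went the other way against DMSO 3 and 4. It lay at 149, 162, 157 and 152 CPM in SY-351, against 1268, 1481, 79.9 and 109 CPM in DMSO 1 to 4. The SY-351 libraries lay between both DMSO pairs. The log2 fold was 0.74 ± 0.16 over DMSO 3 and 4 (edgeR adjusted p = 2.63e-05) and −2.24 ± 0.93 over all DMSO libraries, where it did not pass (edgeR adjusted p = 0.140).

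JUN (NM_002228, chr1:58780790-58784047, minus strand, 1 exon), the classical AP-1 activator and target of the JNK kinases, was at 11.3, 10.7, 12.1 and 11.2 CPM in SY-351, against 143, 166, 16.6 and 20.7 CPM in DMSO 1 to 4. The groups did not overlap. JUN fell by 0.70 ± 0.16 on the log2 scale against DMSO 3 and 4 (edgeR adjusted p = 6.69e-05) and by 2.93 ± 0.78 against all DMSO libraries (edgeR adjusted p = 0.0371). All 3 JUN genes have a single exon, so no intron reads enter their counts.

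Because members of a family share each library, their proportions do not depend on how libraries are scaled. Per kilobase of transcript, JUND made up 17.6%, 17.8%, 18.2% and 17.7% of JUN family mRNA in SY-351, against 56.5%, 56.7%, 58.5% and 57.7% in DMSO 1 to 4. JUNB made up 79.3%, 79.5%, 78.7% and 79.3% in SY-351, against 41.2%, 41.0%, 37.5% and 38.5% in DMSO. JUN itself stayed a small part, 2.70% to 3.12% in SY-351 and 2.36% to 4.01% in DMSO. The exchange of JUND for JUNB as the leading JUN mRNA was seen in every library, and here DMSO 1 and 2 lay close to DMSO 3 and 4 although their CPM did not.

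**Figure D2:**
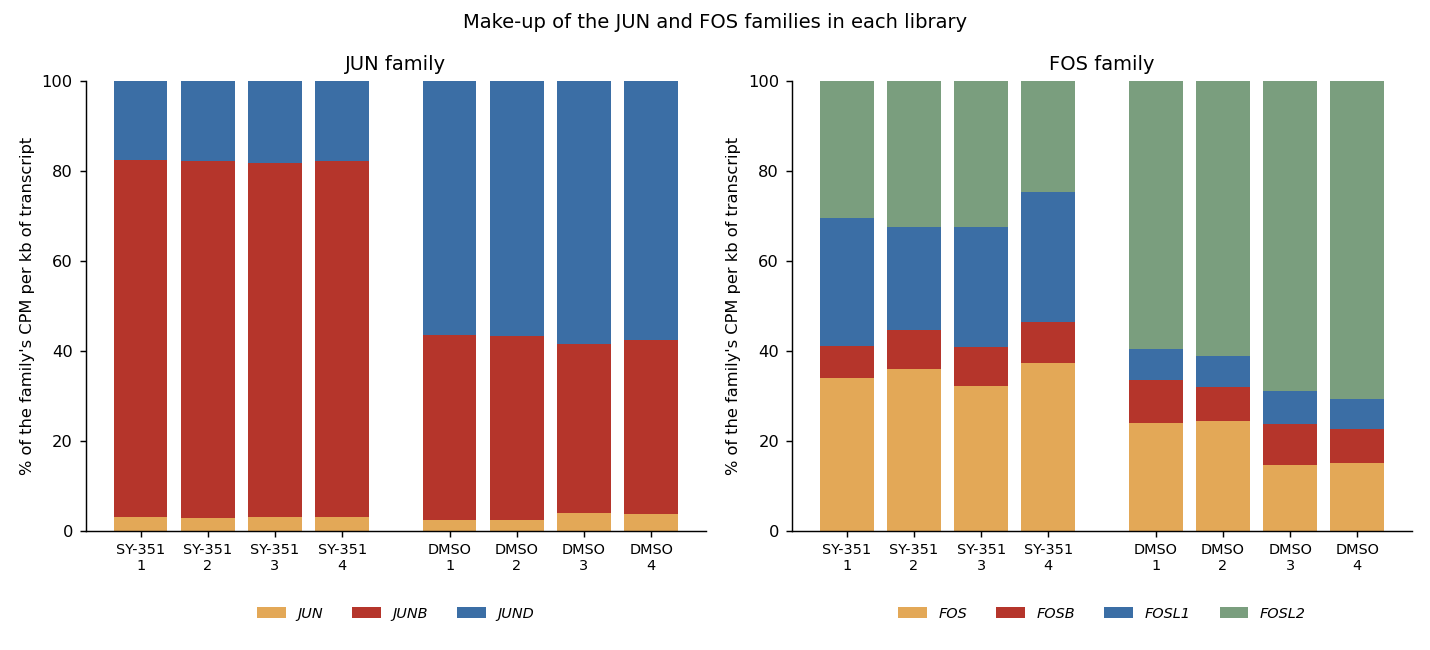
Share of each gene in its family's CPM per kb of transcript (%), 1 stacked bar a library, SY-351 1 to 4 left of DMSO 1 to 4. JUND takes 17.6% to 18.2% of the JUN family in SY-351 and 56.5% to 58.5% in DMSO, and FOSL2 takes 24.8% to 32.4% of the FOS family in SY-351 and 59.6% to 70.7% in DMSO.

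In the FOS family FOSL2, which encodes FRA2, fell, while FOS and FOSL1, which encodes FRA1, rose against DMSO 3 and 4. FOSL2 (NM_005253, chr2:28392857-28417317, plus strand, 4 exons) lay at 14.5, 17.3, 16.4 and 13.1 CPM in SY-351, against 138, 151, 44.8 and 59.7 CPM in DMSO 1 to 4. Every SY-351 library was below every DMSO library. The log2 fold was −1.75 ± 0.15 against DMSO 3 and 4 (edgeR adjusted p = 3.08e-29), a fall of 3.36-fold. Against all DMSO libraries it was −2.68 ± 0.45 (edgeR adjusted p = 0.00828).

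FOS (NM_005252, chr14:75278827-75282230, plus strand, 4 exons), the first AP-1 protein made after a stimulus, lay at 5.16, 6.17, 5.24 and 6.33 CPM in SY-351, against 17.9, 19.3, 3.03 and 4.08 CPM in DMSO 1 to 4. As with JUNB, the SY-351 libraries lay above DMSO 3 and 4 and below DMSO 1 and 2. The log2 fold was 0.71 ± 0.22 over DMSO 3 and 4 (edgeR adjusted p = 0.00338) and −0.95 ± 0.62 over all DMSO libraries (edgeR adjusted p = 0.328). With libraries scaled by their totals alone the FOS fold over DMSO 3 and 4 was 0.29 (edgeR adjusted p = 0.178), and the call was lost.

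FOSL1 (NM_005438, chr11:65892048-65900388, minus strand, 4 exons) lay at 3.35, 3.06, 3.36 and 3.79 CPM in SY-351, against 3.94, 4.23, 1.18 and 1.41 CPM in DMSO 1 to 4. The SY-351 libraries came close to DMSO 1 and 2 but stayed below both. FOSL1 had the largest rise of the 10 over DMSO 3 and 4, a log2 fold of 1.41 ± 0.28 (2.65-fold; edgeR adjusted p = 2.54e-06). Over all DMSO libraries the fold was 0.34 ± 0.46 (edgeR adjusted p = 0.644).

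FOSB (NM_006732, chr19:45467995-45475179, plus strand, 4 exons), a partner of JUN that is low in most resting cells, was at 1.92, 2.63, 2.48 and 2.73 CPM in SY-351, against 12.4, 10.5, 3.34 and 3.60 CPM in DMSO 1 to 4. The groups did not overlap, but the fold passed neither test. It was −0.49 ± 0.26 against DMSO 3 and 4 (95% interval −0.99 to 0.01; edgeR adjusted p = 0.105) and −1.61 ± 0.50 against all DMSO libraries (edgeR adjusted p = 0.0613).

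Per kilobase of transcript, FOSL2 made up 30.5%, 32.4%, 32.4% and 24.8% of FOS family mRNA in SY-351, against 59.6%, 61.3%, 69.0% and 70.7% in DMSO 1 to 4. FOSL1 made up 28.4%, 23.0%, 26.7% and 28.8% in SY-351, against 6.84%, 6.89%, 7.32% and 6.71% in DMSO. FOS took 32.1% to 37.3% in SY-351 and 14.5% to 24.3% in DMSO, without overlap, and FOSB took 7.20% to 9.17% in SY-351 and 7.57% to 9.51% in DMSO. All FOS family genes have 3 introns inside their counted intervals, so any unspliced RNA adds to their shares. The interval is 24461 bases for a transcript of 6708 in FOSL2, and 8341 bases for a transcript of 1669 in FOSL1. The part of unspliced RNA in these shares was not tested.

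EGR1 and the IER genes did not move as one group. EGR1 (NM_001964, chr5:138465478-138469303, plus strand, 2 exons) was at 1.51, 1.57, 2.16 and 2.61 CPM in SY-351, against 12.2, 13.98, 2.13 and 3.42 CPM in DMSO 1 to 4. SY-351 replicates 3 and 4 overlapped DMSO 3, and EGR1 passed neither test: the log2 fold was −0.48 ± 0.28 against DMSO 3 and 4 (95% interval −1.02 to 0.06; edgeR adjusted p = 0.146) and −2.01 ± 0.64 against all DMSO libraries (edgeR adjusted p = 0.0648). The EGR1 fold depended on which control was kept: it was −0.80 with DMSO 4 as the only control and −0.08 with DMSO 3 as the only control. Every other factor shifted the same way. With DMSO 4 and DMSO 3 as the only control, IER5 was at −0.86 and −0.36, JUNB at 0.52 and 1.01 and FOSB at −0.55 and −0.41.

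IER2 rose against DMSO 3 and 4. The gene (NM_004907, chr19:13150410-13154911, plus strand, 2 exons) lay at 158, 171, 172 and 151 CPM in SY-351, against 694, 813, 71.0 and 96.2 CPM in DMSO 1 to 4. Like JUNB and FOS, it sat between both DMSO pairs. The 1 intron of IER2 lies inside its counted interval of 4502 bases, so any unspliced IER2 RNA adds to these values. The log2 fold was 0.99 ± 0.17 over DMSO 3 and 4 (1.98-fold; edgeR adjusted p = 1.83e-08) and −1.36 ± 0.78 over all DMSO libraries (edgeR adjusted p = 0.269).

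IER5 (NM_016545, chr1:181088699-181092900, plus strand, 1 exon), which acts with the heat shock factor HSF1, fell. It lay at 18.5, 18.8, 18.5 and 19.2 CPM in SY-351, against 172, 208, 24.9 and 34.4 CPM in DMSO 1 to 4. The groups did not overlap, and the SY-351 libraries were within 1 CPM of each other. The log2 fold was −0.64 ± 0.15 against DMSO 3 and 4 (edgeR adjusted p = 0.000128) and −2.55 ± 0.70 against all DMSO libraries (edgeR adjusted p = 0.0407).

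**Figure D3:**
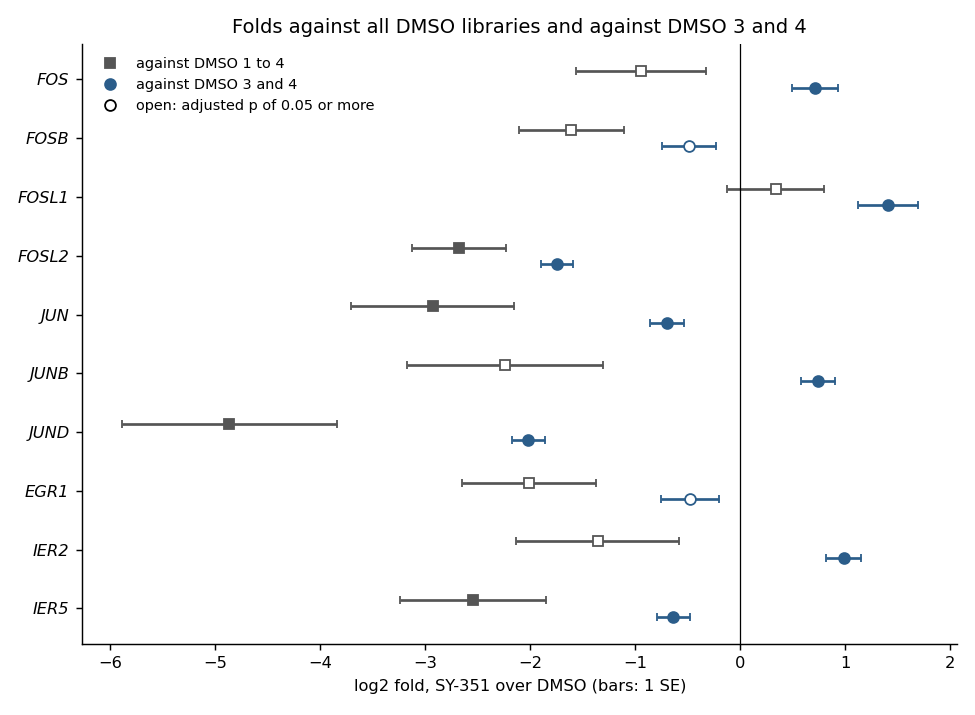
Log2 fold of SY-351 over DMSO for each factor, with bars of 1 SE, against DMSO 1 to 4 (grey squares) and against DMSO 3 and 4 (blue circles); filled symbols passed an adjusted p of 0.05. FOSL2, JUN, JUND and IER5 are filled on the left in both sets, and FOS, FOSL1, JUNB and IER2 are filled on the right against DMSO 3 and 4 alone.

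The calls against all DMSO libraries changed when single libraries were left out. Without any 1 of the SY-351 libraries the JUND log2 fold stayed at −4.80 to −4.89, against −4.87 with all of them. FOSL2 passed whichever library was left out. JUND was lost without any 1 of the SY-351 libraries (edgeR adjusted p = 0.0695 to 0.0736), and JUN and IER5 were lost without any SY-351 library, DMSO 1 or DMSO 2, so that 1 to 2 of the 10 stayed lower. Without DMSO 3 there were 7 lower, JUNB, FOSB and EGR1 being added, and without DMSO 4 there were 6, FOSB and EGR1 being added. Lower calls over all genes moved the same way. They were 2100 of 15472 with all libraries, and 473 to 602 of 15718 to 15796 without any 1 SY-351 library. Without DMSO 1 they were 1264, without DMSO 2 1458, without DMSO 3 3438 of 15362 and without DMSO 4 2500 of 15551. With upper quartile scaling, which put the median of all genes at 0.24 and their calls at 758 higher and 1644 lower, against 450 higher and 2100 lower with TMM, JUN (edgeR adjusted p = 0.0518) and IER5 (edgeR adjusted p = 0.0579) were lost. Against DMSO 3 and 4, the 4 falls and 4 rises held whichever SY-351 library was left out. With DMSO 3 or DMSO 4 as the only control these factors kept their directions, but the sizes moved. JUN, for example, was at −0.50 with DMSO 3 and −0.86 with DMSO 4.

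Scaling moved the balance of rises and falls. With library totals alone, in place of TMM, the median log2 fold of all genes against DMSO 3 and 4 was −0.45, and calls over all genes split into 2065 higher and 6848 lower, against 3466 higher and 4172 lower with TMM. Under that scaling FOSL1 (0.97), IER2 (0.57) and JUNB (0.32) were still called higher, and FOSB (−0.93) and EGR1 (−0.89) joined the 4 that were lower. With upper quartile scaling the median was 0.17 and the split was 5139 higher and 3948 lower, with the same 8 of the 10 factors called. No direction among the 10 turned round under any scaling in this comparison.

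The order of the factors per kilobase of transcript also differed between the groups. In SY-351 it ran JUNB, at 85.2 ± 3.05 CPM per kb (SD, n = 4), IER2 (78.3 ± 4.98), JUND (19.2 ± 0.88), IER5 (4.48 ± 0.078), JUN (3.20 ± 0.16), FOS (2.65 ± 0.28), FOSL2 (2.28 ± 0.28), FOSL1 (2.03 ± 0.18), FOSB (0.646 ± 0.096) and EGR1 (0.626 ± 0.17). The SY-351 libraries of JUNB and IER2 overlapped, as did those of FOS and FOSL2, FOSL2 and FOSL1, and FOSB and EGR1, so these neighbours are not set apart. In DMSO 3 and 4 JUND came first at 78.9 ± 14.7 CPM per kb (SD, n = 2), ahead of JUNB (51.8 ± 11.2) and IER2 (40.1 ± 8.53), with FOSL2 (7.79 ± 1.57) above IER5 (7.08 ± 1.61) and EGR1 (0.885 ± 0.29) and FOSL1 (0.777 ± 0.096) lowest by their means. The DMSO 3 and 4 libraries of JUNB and IER2, of FOSL2 and IER5, of FOSB and EGR1, and of EGR1 and FOSL1 overlapped, so these neighbours are not set apart either.

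The gap between the DMSO pairs was itself large for these genes. Each of the 10 was higher in the first DMSO pair (replicates 1 and 2) than in the second, by 2.76-fold for FOSL2 to 14.6-fold for JUNB and 13.2-fold for JUND, with a median log2 ratio of 2.53. Between these lay IER2 (9.01-fold), JUN (8.26-fold), IER5 (6.42-fold), FOS (5.22-fold), EGR1 (4.71-fold), FOSB (3.30-fold) and FOSL1 (3.15-fold). Among 12054 genes with a mean of at least 1 CPM, 47.9% were higher in DMSO 1 and 2. Across those genes the log2 ratio of the pairs went with the GC content of the transcript (Pearson r = 0.597, as a description over genes that share the same 4 libraries). The transcripts of the 10 have a GC content of 49.8% (IER5) to 69.7% (JUND), against a median of 49.6% over genes. Against DMSO 1 and 2 alone all 10 were lower, from −0.41 for FOSL1 (edgeR adjusted p = 0.0477) to −5.91 for JUND (edgeR adjusted p = 1.64e-10), where 38.4% of genes were lower and 40.8% were higher. The part of GC content in these values was not tested.

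Markers of other blood cell stages also differed between the groups. The summed level of 4 late neutrophil markers (LTF, CAMP, MMP8 and LCN2) was 60.2 to 69.9 CPM in SY-351, against 6.33 to 6.94 CPM in DMSO 1 and 2 and 8.63 to 10.8 CPM in DMSO 3 and 4. The summed level of 4 monocyte or macrophage markers was 150 to 190 CPM in SY-351, against 59.7 to 64.3 CPM in DMSO 1 and 2 and 53.5 to 76.3 CPM in DMSO 3 and 4. In SY-351 that sum was nearly all CSF1R, at 147 to 187 CPM, while CD14 went the other way and was called lower in both comparisons. CD14 lay at 1.28 to 1.57 CPM in SY-351, against 61.8 and 57.5 CPM in DMSO 1 and 2 and 6.43 and 8.95 CPM in DMSO 3 and 4. Markers of B cells summed to 17.1 to 19.5 CPM in SY-351, against 6.69 to 15.2 CPM in DMSO, and those of T cells, erythroid cells and adherent cells stayed at or below 4.69 CPM everywhere. No marker was at 0 in every library. Their part in the levels of the 10 factors was not tested.

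Related genes were counted from lists chosen with earlier results of these data known, with folds against all DMSO libraries first and DMSO 3 and 4 second. Over all genes tested, 13.6% were lower and 2.91% higher in the first of these comparisons, and 26.4% were lower and 21.9% higher in the second. Among 23 tested bZIP partners of AP-1, 7 were lower and 0 higher against all DMSO libraries (median log2 fold −1.29), and 10 were lower and 3 higher against DMSO 3 and 4 (median −0.40). Falls are given as log2 folds in the same order. NFE2, the erythroid and megakaryocytic bZIP factor, fell (−2.92 and −2.67), as did JDP2, an AP-1 repressor (−2.63 and −1.36), and NFE2L2, the oxidative stress factor NRF2 (−1.93 and −1.48). The stress factor ATF5, the highest of the list at 302 to 321 CPM in SY-351 and 506 to 3637 CPM in DMSO, fell too (−2.76 and −0.95), and so did NFE2L1 (−0.95 and −1.02). ATF4, the integrated stress response factor, fell against DMSO 3 and 4 (−0.50), and its fold of −1.46 against all DMSO libraries did not pass. MAFK was at −2.07 and 0.12 and passed neither test.

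Among the serum response and CREB factors that drive immediate early promoters, 5 of 13 were lower and 0 higher against all DMSO libraries (median −1.35), and 6 were lower and 2 higher against DMSO 3 and 4 (median −0.57). SRF, which binds CArG boxes, lay at 61.1, 62.6, 63.6 and 62.5 CPM in SY-351, against 415, 394, 101 and 134 CPM in DMSO 1 to 4. It fell by 0.89 ± 0.16 on the log2 scale against DMSO 3 and 4 (edgeR adjusted p = 6.05e-08). Its coactivator MRTFA fell in both comparisons (−3.25 and −1.74). The acetyltransferases CREBBP (−2.67 and −1.40) and EP300 (−1.47 and −1.61) and the CREB coactivator CRTC3 (−1.35 and −0.82) fell too.

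Of the 24 tested MAP kinases, which pass signals to AP-1 and EGR1, 3 were lower and 2 higher against all DMSO libraries (median −0.44), and 5 were lower and 7 higher against DMSO 3 and 4 (median 0.17). The share of lower genes in this list is close to that over all genes in the first comparison and below it in the second. MAPK3, the kinase ERK1, rose (1.20 and 1.26). MAP2K7, which activates JNK, fell (−3.87 and −1.62), with MAPK7, the kinase ERK5 (−3.84 and −1.89), and MAP2K3, which activates p38 (−1.81 and −0.89). MAP2K2 passed against DMSO 3 and 4 (0.41) but not against all DMSO libraries (−1.90), and RPS6KA4 (−2.32 and −0.11) passed neither test.

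Of 7 tested EGR, NAB and IER relatives, 2 were lower and 0 higher against all DMSO libraries (median −1.97). Against DMSO 3 and 4, 6 were tested, 2 lower and 2 higher (median 0.32). The corepressor of EGR proteins NAB2 fell (−2.73 and −1.90), and so did WT1, a zinc finger factor with an EGR-like binding site (−2.85 and −1.30). IER5L, the relative of IER5, rose against DMSO 3 and 4 (0.72) and did not pass against all DMSO libraries (−1.97), and NAB1 (−0.12 and −0.07) passed neither test.

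Of 22 tested genes that AP-1 or EGR1 are known to switch on in other cells, 7 were lower and 1 higher against all DMSO libraries (median −1.27), and 9 were lower and 6 higher against DMSO 3 and 4 (median −0.30). The growth arrest gene GADD45A (−3.61 and −1.88), the plasminogen activator PLAU (−1.64 and −1.92), its receptor PLAUR (−0.85 and −0.73) and the cyclin gene CCND1 (−2.09 and −0.57) fell. ITGAX, the integrin CD11c, rose (2.06 and 2.00). VIM (0.45) and TGFB1 (0.64) rose against DMSO 3 and 4, their folds of −1.54 and −1.69 against all DMSO libraries did not pass, and CD44 (−0.16 and 0.20) passed neither test.

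**Figure D4:**
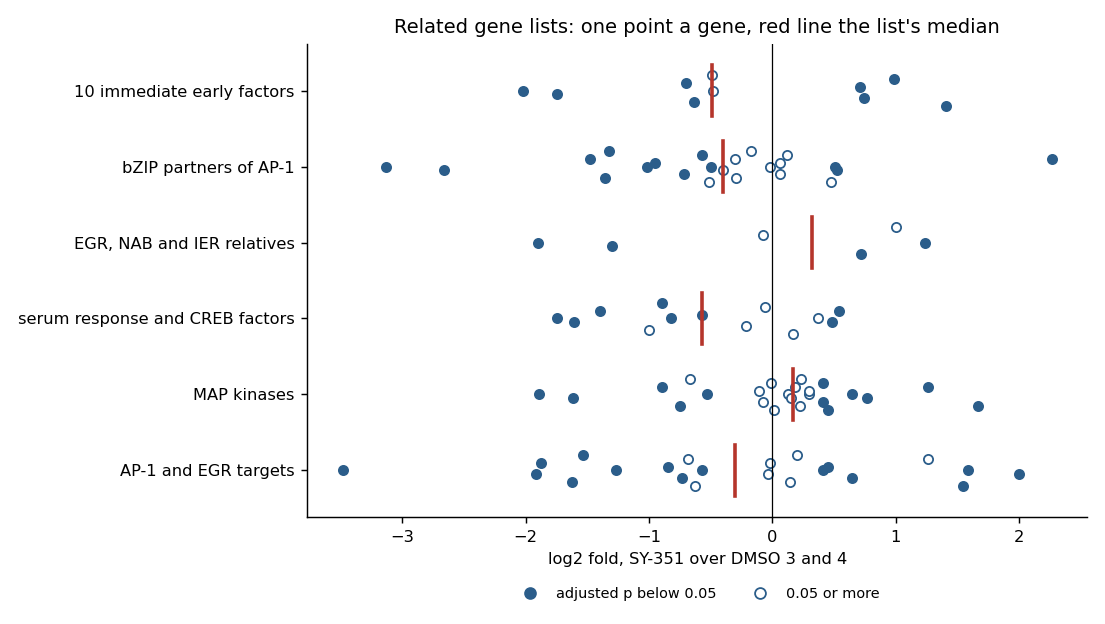
Log2 fold of SY-351 over DMSO 3 and 4 for each tested gene of the related lists, filled where the adjusted p was below 0.05, with the list's median as a red line. Each list holds genes on both sides of 0, and the medians lie between −0.57 and 0.32.

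The authors' deposited table of local splicing variations holds 6716 variations in 3700 genes, and none of the 10 factors is in it. A variation needs at least 1 choice between junctions or a retained intron, and JUN, JUNB, JUND and IER5 have a single exon in GENCODE v29 (6.16% of genes do), EGR1 and IER2 have 2 and the FOS family genes 4. Among the related lists the authors' deposited table gives, past its probability of 0.95, 5 of 25 bZIP partners, 4 of 13 serum response and CREB factors, 2 of 25 MAP kinases and 2 of 25 AP-1 or EGR targets. Of the listed genes that have any variation in it, these are 5 of 6, 4 of 4, 2 of 5 and 2 of 3, where 2375 of all 3700 genes in the authors' deposited table passed. In the authors' deposited table the junction of MAP2K2 with the largest difference, in a variation with a retained intron, had an inclusion of 0.109 in SY-351, against 0.951 in control. That of EP300 had 0.587 in SY-351, against 0.998 in control, in the authors' deposited table. For the EGR, NAB and IER relatives 0 passed in the authors' deposited table, where IER3 had a probability of 0.790.

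Set side by side as a description, the 4 factors that fell and the 4 that rose against DMSO 3 and 4 differed in some features and not in others. A single exon was found in JUND, JUN and IER5 among those that fell and in JUNB among those that rose. The exact string TATAAA within the 250 bases searched was found in none of the 4 that fell. It was found in FOS and JUNB among those that rose, FOSL1 not being in the promoter table. Near matches were not searched for, and JUND (ctataaga) and IER5 (tatataag), which fell, hold such letters close to the start. The exact string therefore does not show that the genes that fell lack a TATA-like site. ATTTA pentamers did not separate them, with 1 in JUND, 3 in JUN, 9 in FOSL2 and 10 in IER5 among those that fell, and 0 in IER2, 1 in FOSL1, 2 in JUNB and 5 in FOS among those that rose. Nor did transcript GC content, which ran from 49.8% in IER5 to 69.7% in JUND among those that fell, and from 52.6% in FOS to 64.9% in JUNB among those that rose.

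The genes whose log2 CPM ran most like each factor over the 6 libraries of SY-351 and DMSO 3 and 4 were taken from 8299 genes with a mean of at least 10 CPM. For JUND they were B4GALT3, QRICH1 and EIF2AK3 (Pearson r = 0.9998 to 0.9999), for FOSL2 ZNF142, EP300 and TRIM24, and for JUN ZNF101, ELF2 and MBD4. For IER2 they were ARSG, GK5 and CHFR, for JUNB LRCH4, THEM4 and CARMIL2, and for FOSL1 RASAL2, TP53I11 and MACROD1. The libraries fall into 2 groups, so an r near 1 says little more than that a gene differs between the groups in the same direction. The likeness was weakest for FOSB, whose nearest gene was ZNF407 (r = 0.965), and for EGR1, whose nearest was CKAP4 (r = 0.976).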

How the data were processed

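Read counts per gene were made by the authors with featureCounts 1.6.2 (strand setting 1) over 1 interval per RefSeq transcript, introns included, per the file headers, on GRCh38 (build per the submitters' processing notes, where DESeq2 is listed as well). Whether the library kit was stranded is not in the labels, and no other row of the table overlaps the 10 intervals. The table has 8 columns of counts, 1 for each replicate. How technical repeats were merged, and which samples the authors' deposited splicing table leaves out, is not given in the sources used here. That table gives expected inclusion and a posterior probability. Its score, a difference deposited as control minus SY-351, was turned round here.

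Symbols came from the RefSeq gene table for 17867 rows and from GENCODE v29 for 134, and 92 kept their identifier. Counts were tested in R 4.3.3 with edgeR 4.0.16 (TMM, filterByExpr, robust quasi-likelihood fit, group as the only term, two-sided, Benjamini-Hochberg adjustment over all genes tested), over all 8 libraries and over the 6 without DMSO 1 and 2. Each SE was taken as the size of the log2 fold over the root of its F statistic. TMM factors were 1.02 to 1.07 in SY-351, against 0.661, 0.657, 1.61 and 1.21 in DMSO 1 to 4. Levels per kilobase use GENCODE v29 transcript lengths. The steps were tested on simulated data.

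The members and lists were chosen with earlier results of these data known. Named were all 10 members, the 3 genes of highest mean CPM in each related list, any list gene called in both comparisons whose mean reached 10 CPM, and the nearest genes by Pearson r. Alternatives were other scalings, DESeq2 1.42.0, limma-voom (limma 3.58.1), other filters, a fit without robust estimation, a replicate block, each library left out, and other controls.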

Additional observations from a re-analysis of the deposited data

How the results depend on the processing

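Against all DMSO libraries 4 of the 10 factors were lower, and this count depended on the method: 2 with upper quartile scaling, 2 with limma-voom, 7 with DESeq2, and all 10 when DMSO 1 and 2 were the only controls. Leaving out 1 library gave 1 to 7. Lower calls over all genes moved as well, from 2100 of 15472 in the main fit. They were 1644 with upper quartile scaling, 1580 with limma-voom, 3806 with DESeq2 and 5996 of 15618 against DMSO 1 and 2 alone. With 1 library left out they ran from 473 to 3438. FOSL1, at 0.34, was turned round (−0.41) against DMSO 1 and 2 alone. The cause was not tested. Against all DMSO libraries 0 factors were higher under every alternative run. Against DMSO 3 and 4 the 4 lower factors stayed 4 to 6 under the scalings, filters, tools and left-out libraries. Of the 4 higher ones 2 were left with a minimum mean of 10 CPM, a filter that FOS and FOSL1 do not pass, and 3 with total count scaling. Under the replicate block 0 factors were lower against all DMSO libraries (edgeR called 0 of 15472 genes, while 3649 genes and 4 of the factors passed an unadjusted p below 0.05). The block against DMSO 3 and 4 holds SY-351 replicates 3 and 4 alone, and there 2 were lower and 1 was higher. Over all 15860 genes tested in that block, 2150 were lower and 1032 higher. Deviations of same-numbered libraries from their group means correlated at r = −0.123 to 0.0146. The gap between the DMSO pairs enters the DMSO deviations, so this cannot decide whether the numbers pair the libraries. No member entered the splicing table at any probability or size tried. Depth limits FOSB and EGR1 most, with 121 to 217 and 116 to 142 counts per SY-351 library.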
